A study of Homo sapiens with 6 samples.

Results

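The nuclear genes of oxidative phosphorylation were followed through ChIP-seq peak lists from HepG2 cells (a cultured line from a human hepatic tumour) that were either left untreated or given sodium benzoate (SB, 10 mM for 24 h). The members were all protein-coding genes in GENCODE 44 on chromosomes 1 to 22 and X whose symbol begins with NDUF, UQCR, ATP5, COX4, COX5, COX6, COX7 or COX8, together with SDHA, SDHB, SDHC and SDHD. This gave 98 members of 19970 coding genes. They comprised 39 complex I genes, 8 complex I assembly factors (NDUFAF genes), 4 complex II genes, 9 complex III genes, 17 complex IV genes, 19 ATP synthase genes and 2 read-through genes, which join a member to a neighbouring gene. The read-through genes add no independent promoter, since the transcription start site (TSS) of ATP5MF-PTCD1 lies 3 bp from that of ATP5MF, and that of NDUFC2-KCTD14 lies 89 bp from that of NDUFC2.

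In ChIP-seq an antibody brings down chromatin and the DNA held in it is sequenced, and a peak is a stretch where more reads were found than in the background. Pan antibodies were used, one against acetyl-lysine (Kac) and the other against benzoyl-lysine (Kbz), so neither says which histone or residue carried the mark. The 6 groups were input, Kac and Kbz of control cells and input, Kac and Kbz of SB-treated cells, with 1 library in each. Both treatments used the same medium (DMEM with serum), and no genetic change was described for either. Peak lists of 3 libraries were used, with 70329 peaks in control Kac and 63282 in SB Kac, with 24308 in Kbz. According to the labels the peak caller found nothing in control Kbz, so Kbz has no untreated value at any member. Because a group is a single library, no test between groups was made, no error between replicates exists, and differences between lists below are descriptions of these libraries. Read totals are not part of a peak list, so the depth is unknown.

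The labelled cell type was checked on 11 genes that hepatocytes express strongly or that control their identity. Of these, 4 had a control Kac peak within 3 kb of the TSS, 3 had an SB Kac peak and 3 had a Kbz peak. ALB, AFP, APOB, TTR, SERPINA1, FGB and HNF4A had none in any list. Among 8 marker genes of other tissues, control Kac peaks were found at 4, SB Kac peaks at 3 and Kbz peaks at 2. Among all coding genes the share with control Kac was 73.1%. The defining liver markers were thus mostly without peaks, which goes against the label, and the name HepG2 is used below only as the label gives it.

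Oxidative phosphorylation makes most of the ATP of a resting cell at the inner mitochondrial membrane. Complexes I and II pass electrons from NADH and succinate to ubiquinone, complex III passes them on to cytochrome c and complex IV to oxygen, and ATP synthase uses the proton gradient that complexes I, III and IV build. Most subunits are encoded in the nucleus, and many of their promoters are known for binding sites of NRF1, of the ETS factor GABP and of YY1, while a few subunits have paralogs used in heart, muscle, testis or low oxygen.

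The promoter sequences of 7 members are shown because the peaks differed most plainly among them. COX7C and SDHD had peaks of all 3 lists over the TSS, SDHA had Kac without Kbz, and COX6A1 and COX8A are the widely used forms of subunits whose tissue-restricted forms, COX6A2 and COX8C, had no peak. Each run has 150 bases before the TSS and 30 from it onward, 5′ to 3′ on the strand of the gene, taken from RefSeq on GRCh38.p14. COX7C is at chr5:86617791-86617970 on the plus strand, SDHD at chr11:112086723-112086902 (plus), SDHA at chr5:218170-218349 (plus), COX6A1 at chr12:120437963-120438142 (plus), COX6A2 at chr16:31428331-31428510 (minus), COX8A at chr11:63974470-63974649 (plus) and COX8C at chr14:93347032-93347211 (plus). Capitals mark exact matches on either strand to an ETS core (CCGGAAG), a YY1 core (AAGATGGCG), an NRF1 core (GCGCATGC) or an SP1 box (GGGCGG).
COX7C: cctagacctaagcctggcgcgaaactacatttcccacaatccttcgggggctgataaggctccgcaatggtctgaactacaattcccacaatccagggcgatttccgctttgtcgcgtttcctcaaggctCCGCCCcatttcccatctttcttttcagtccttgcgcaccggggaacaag
SDHD: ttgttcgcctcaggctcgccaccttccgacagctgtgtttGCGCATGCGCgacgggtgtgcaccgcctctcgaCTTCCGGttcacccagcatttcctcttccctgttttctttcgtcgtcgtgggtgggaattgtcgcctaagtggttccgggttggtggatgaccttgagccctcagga
SDHA: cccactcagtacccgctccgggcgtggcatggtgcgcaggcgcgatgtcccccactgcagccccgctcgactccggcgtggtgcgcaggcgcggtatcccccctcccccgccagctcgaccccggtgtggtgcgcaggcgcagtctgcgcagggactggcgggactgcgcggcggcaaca
COX6A1: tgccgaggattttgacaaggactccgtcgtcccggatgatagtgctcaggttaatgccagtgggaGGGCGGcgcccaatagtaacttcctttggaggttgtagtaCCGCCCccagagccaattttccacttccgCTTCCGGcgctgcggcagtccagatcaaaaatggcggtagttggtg
COX6A2: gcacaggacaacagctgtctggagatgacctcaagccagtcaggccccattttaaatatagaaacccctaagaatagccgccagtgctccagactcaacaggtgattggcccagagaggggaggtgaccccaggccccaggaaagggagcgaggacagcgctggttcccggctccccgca
COX8A: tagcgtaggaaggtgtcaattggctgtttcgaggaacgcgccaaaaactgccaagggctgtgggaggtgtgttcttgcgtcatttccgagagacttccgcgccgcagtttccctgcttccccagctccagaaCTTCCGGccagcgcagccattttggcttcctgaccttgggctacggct
COX8C: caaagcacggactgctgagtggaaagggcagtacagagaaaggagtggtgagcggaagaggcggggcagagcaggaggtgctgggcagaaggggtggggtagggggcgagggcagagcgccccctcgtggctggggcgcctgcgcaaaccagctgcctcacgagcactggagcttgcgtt

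SDHD held a pair of overlapping NRF1 matches and 1 ETS match, COX6A1 held an ETS match and 2 SP1 matches, and COX8A held 1 ETS match. COX7C, among the members with the strongest Kbz peaks, held a single SP1 match. SDHA, COX6A2 and COX8C had no match in these 180 bases, which says only that these letters were not found in the window. The number of CpG dinucleotides in the printed stretch was 23 in SDHA, 15 in SDHD, 12 in COX6A1, 12 in COX8A, 11 in COX7C, 10 in COX8C and 5 in COX6A2.

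The first comparison asked how many members carried each mark near the start of the gene. Acetylation was found at nearly all of them in both conditions, and benzoylation at almost as many after SB. Within 3 kb of the TSS, 93 of 98 members had a control Kac peak (94.9%, Wilson 95% interval 88.6 to 97.8), against 73.1% of all coding genes. An SB Kac peak was present at 93 members (94.9%), against 72.1% of all coding genes. A Kbz peak was present at 89 members (90.8%, interval 83.5 to 95.1), against 60.5% of all coding genes. These intervals, as all below, cover counting error only, and genes that share a promoter are not independent.

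A similar picture was seen when the TSS itself had to lie under a peak. It did at 89 members in control Kac (90.8%) against 59.3% of all coding genes, and at 89 members in SB Kac against 60.5%. For Kbz the TSS was covered at 85 members (86.7%, interval 78.6 to 92.1) against 45.9% of all coding genes. The order of control Kac and Kbz rests on the sizes of the lists. With 15000 peaks taken from each list, the TSS was under Kbz at 83.7% of members and under control Kac at 71.4%. SB Kac, level with control Kac in the full lists, was then the highest at 85.7%. Over all coding genes the shares were 39.5% in Kbz, 35.1% in control Kac and 45.4% in SB Kac. Within 3 kb of the TSS the same 15000 peaks reached 87.8% of members in Kbz, 85.7% in SB Kac and 72.4% in control Kac. In that order, the shares over all coding genes were 49.2%, 49.1% and 39.3%.

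At the deposited threshold no member had a Kac peak in one condition only. Of the 93 members with control Kac, 0 lacked SB Kac (interval up to 3.97%), where 4.74% of all coding genes with control Kac did. Of the 93 with SB Kac, 0 lacked control Kac, where the share over all coding genes with SB Kac was 3.45%. These zeros depend on the threshold, since control Kac without SB Kac was found at 4 members and the reverse at 6 when a −log10 q of 5 or more was required, and at 1 and 14 with 15000 peaks per list. By the start site alone, SDHA was covered in control Kac only and COX6B2 in SB Kac only. The start site was under control Kac at 89 members, under SB Kac at 89 and under both at 88. Over all coding genes these counts were 11839, 12091 and 11159. SB Kac without Kbz was found at 4 of 93 members (4.30%, interval 1.69 to 10.5), against 16.4% of all coding genes with SB Kac. In total 89 members had all 3 lists, 4 had Kac in both conditions without Kbz (SDHA, COX4I2, COX6B2 and ATP5MGL), and 5 had no peak in any list (UQCRHL, COX6A2, COX7A1, COX7B2 and COX8C).

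Peak strength was read as a percentile. The fold, which is the read density of a peak over its background, depends on depth and was ranked only inside its own list, so that the percentile gives the share of that list's peaks with no higher fold. Where several peaks lay in the window, the one with the highest fold was taken. Over members with a peak the median percentile was 89.9 in control Kac and 93.9 in SB Kac, with 77.9 in Kbz. Over all coding genes with a peak the medians were 81.8, 85.3 and 67.8. The lists differ in size, so a lower percentile in Kbz than in Kac does not show a weaker mark. The median −log10 q of the members' strongest peaks, where q is the false discovery rate that the peak caller attached to a peak, was 7.75 in control Kac and 12.2 in SB Kac, with 9.23 in Kbz, and over all coding genes 6.25, 8.38 and 6.99.

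**Figure D1:**
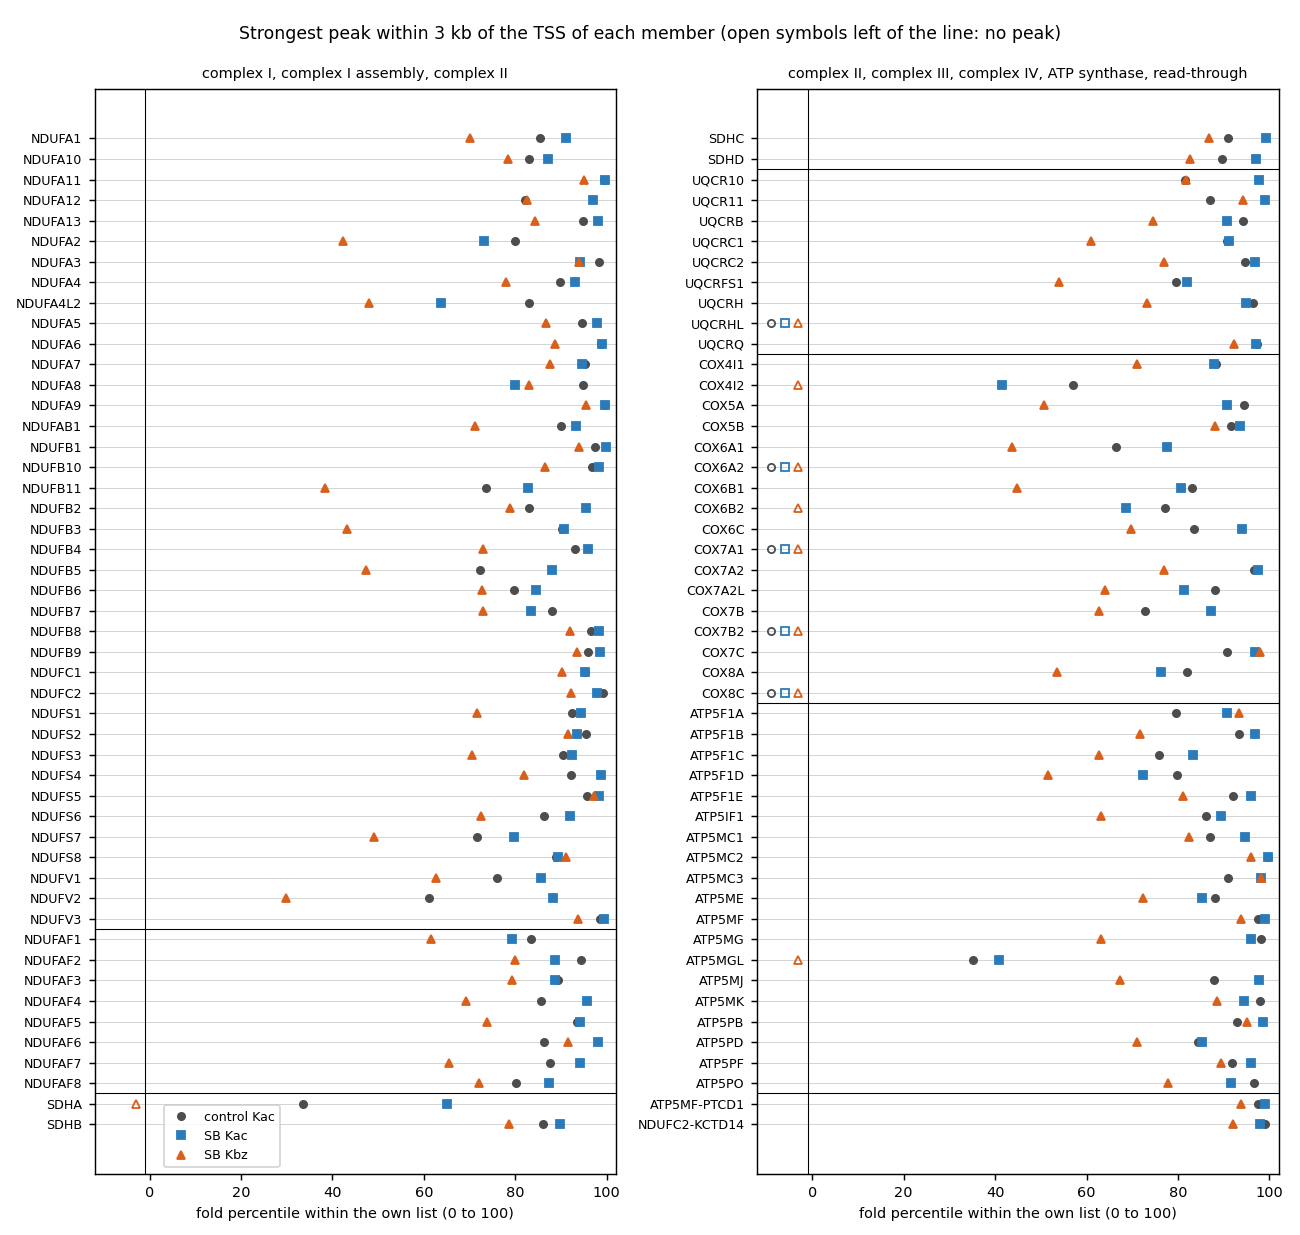
Fold percentile of the strongest peak within 3 kb of the TSS for each of the 98 members (rows), in control Kac (grey circles), SB Kac (blue squares) and SB Kbz (orange triangles), with 1 library per list and open symbols at the left for no peak. Kac symbols gather at the right, around medians of 89.9 and 93.9, and Kbz symbols spread from 29.9 to 98.1, while the open symbols are at SDHA, ATP5MGL, UQCRHL and tissue-restricted complex IV forms. The lists differ in size, so symbols of different lists share no common scale of strength.

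The peaks at the members stood above those of all coding genes in fold rank, and their length did not stand above in the same way. Within the 6 kb around the TSS, the median length under control Kac peaks was 2334 bases over members (95% interval of the median 2090 to 2583). Over all coding genes with a peak it was 2613. Under SB Kac peaks it was 2528 bases (interval 2301 to 2671) against 2710.5. In each Kac list the value of all coding genes lay above the members' interval. Among genes with no other coding TSS within 3 kb this held in SB Kac, with 2381 bases (interval 2000 to 2554) against 2600. In control Kac it did not hold there, with 2487.5 bases (interval 2072 to 2698) against 2536. For Kbz the median length was 1774 bases over all members with Kbz (95% interval of the median 1635 to 1959). Over all coding genes it was 1657, a value inside that interval. When Kac peaks were ranked by length in place of fold, the members' median percentile was below that of all coding genes, 75.5 against 79.0 in control Kac and 78.3 against 80.7 in SB Kac, and for Kbz it was above, 75.6 against 71.9. The intervals of the members' medians, 71.8 to 79.4, 74.1 to 80.8 and 71.3 to 80.9, held the value of all coding genes in each list.

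Kbz lay almost wholly inside the acetylated stretch and filled most of it. This held for all coding genes too, with a larger filled part at the median member. The number of bases under Kbz was 72.1% of that under SB Kac at the median member, and 60.8% at the median coding gene. Of all bases under Kbz in the members' windows, 97.6% were also under an SB Kac peak, and at 66 of 89 members (74.2%) all of them were. Over all coding genes with Kbz these values were 97.6% and 79.8%. Only UQCRFS1 and NDUFAF8 had more bases under Kbz than under SB Kac, 2 of 89 members (2.25%) against 5.22% of all coding genes. UQCRFS1, the Rieske iron-sulfur subunit of complex III, had 3015 bases under Kbz and 1936 under SB Kac, and at NDUFAF8 the lengths were 4098 and 3951 bases.

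**Figure D2:**
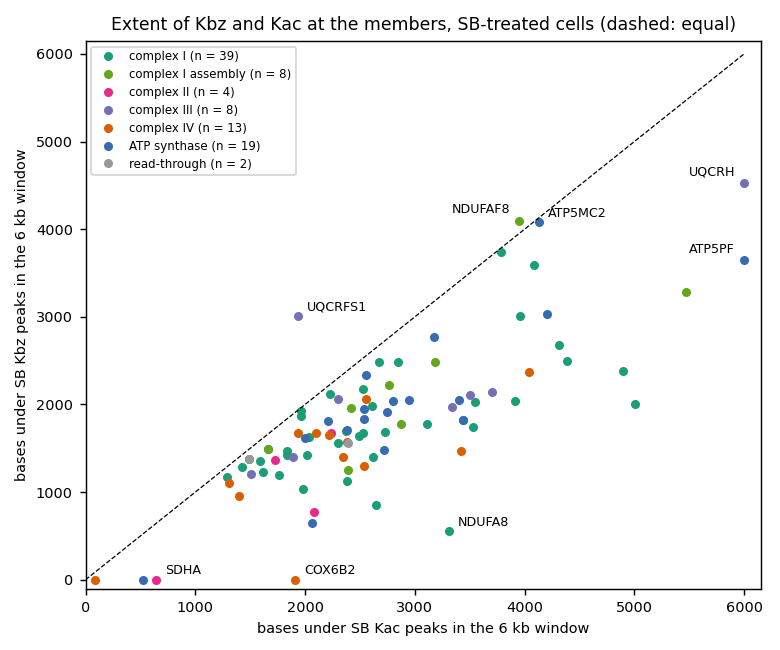
Bases under SB Kbz peaks (vertical axis) against bases under SB Kac peaks (horizontal axis) in the 6 kb window of each of the 93 members with SB Kac, coloured by complex, with the dashed line at equality. Nearly all points lie below the line, UQCRFS1 and NDUFAF8 lie above it, and 4 points lie at 0 Kbz bases.

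Coverage centred on the start site and thinned within a few kb. Control Kac reached its highest share of members, 90.8%, from 100 bp upstream to 150 bp downstream, and SB Kac reached 90.8% from 50 bp upstream to 450 bp downstream. Kbz was highest, at 89.8%, from 100 to 350 bp downstream, with 86.7% at the TSS itself. At 1 kb upstream 39.8% of members were under Kbz, and at 1 kb downstream 24.5%, where the shares over all coding genes were 20.6% and 21.6%. For Kac at 1 kb, 50% of members were covered on each side in control Kac, with 52.0% upstream and 63.3% downstream in SB Kac. Over all coding genes these shares were 42.1% upstream and 43.9% downstream in control Kac, and 40.1% and 47.0% in SB Kac. The downstream side was thus the higher in SB Kac for all coding genes too. By 3 kb upstream 6.12% of members remained under Kbz, and by 3 kb downstream 2.04%, against 3.3% and 2.5% of all coding genes.

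Members had more bases downstream of the TSS than upstream in 35 of 92 cases in control Kac (38.0%), in 43 of 91 in SB Kac (47.3%) and in 37 of 89 in Kbz (41.6%). Over all coding genes the shares were 52.6%, 58.2% and 50.3%. Many members face another gene across a short stretch of DNA. A coding gene on the other strand started within 1 kb upstream of 29 of 98 members (29.6%, interval 21.5 to 39.3), against 9.49% of all coding genes. Peaks at such pairs belong to both genes, and their part in the balance between the sides was not tested.

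**Figure D3:**
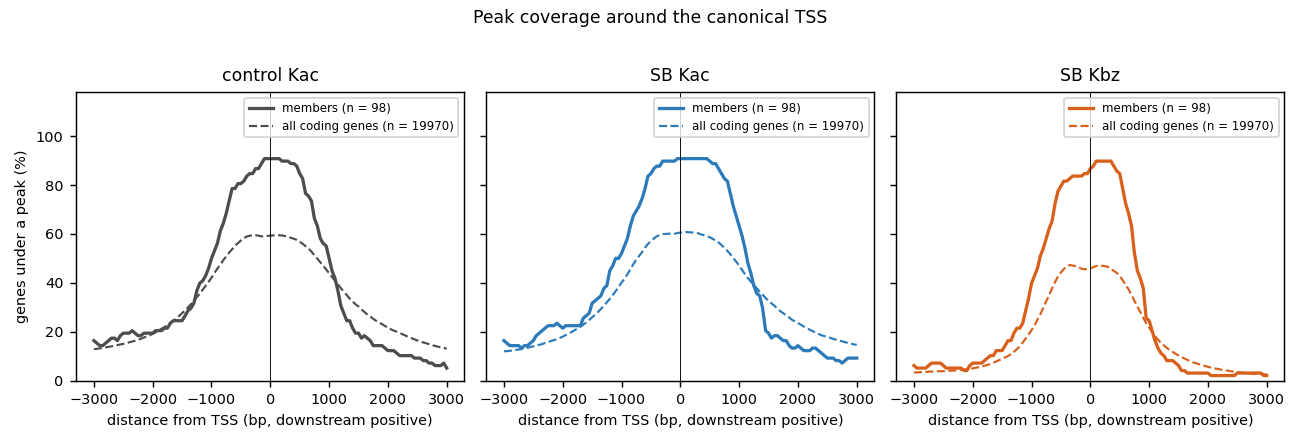
Share of genes under a peak (%, vertical axis) by distance from the TSS in bp (downstream positive) for the 98 members (solid) and all 19970 coding genes (dashed) in the 3 lists. The members' curves reach 90.8% in both Kac lists and 89.8% in Kbz, and at 2 kb downstream lie below the dashed curves, at 12.2% against 21.6% in control Kac and 14.3% against 23.5% in SB Kac.

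SB was compared with control for Kac by the position of each member in its own list. The fold percentile was higher in SB Kac than in control Kac at 64 of 93 members (68.8%, interval 58.8 to 77.3), against 62.2% of all coding genes with both, so the background lay inside the interval. More bases were under SB Kac than under control Kac at 61 of 93 members (65.6%, interval 55.5 to 74.5), against 53.0% of all coding genes. The median difference was 120 bases over members and 40 over all coding genes. Both measures move with the depth and threshold of a library, and with 1 library per condition these differences cannot be told apart from a difference between libraries.

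The ranks of the members in one list went with their ranks in the others. Across the 89 members with all 3 lists, Spearman's rho of the fold percentiles was 0.69 between control Kac and SB Kac, 0.76 between SB Kac and Kbz and 0.67 between control Kac and Kbz. Over 11982 coding genes with all 3 lists the values were 0.70, 0.74 and 0.60. These correlations run across genes, which are not replicates, and all values of a list come from the same library.

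**Figure D4:**
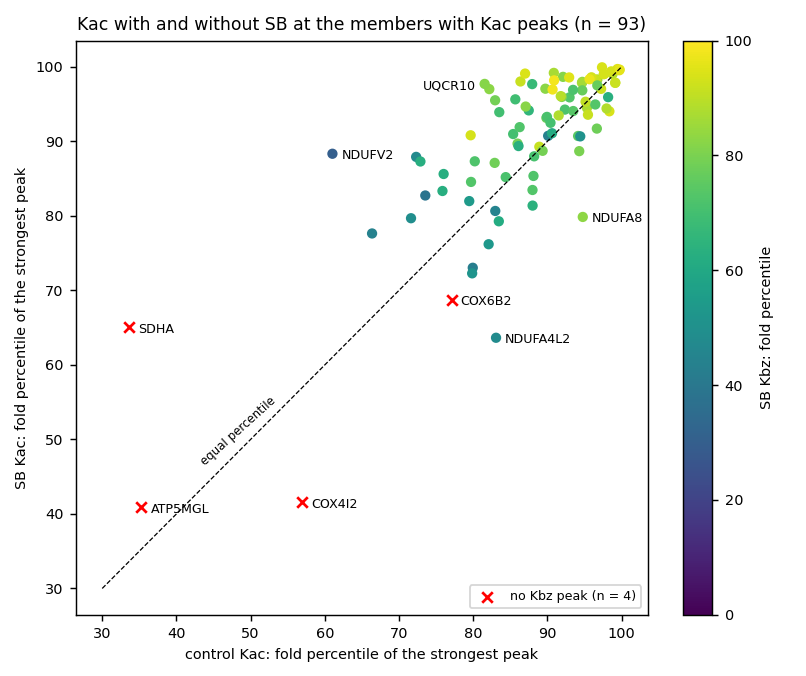
Fold percentile of the strongest SB Kac peak (vertical axis) against that of control Kac (horizontal axis) at the 93 members with Kac, coloured by the Kbz percentile, with crosses for the 4 members without Kbz and the dashed line at equality. Points gather in the upper right corner with 64 of 93 above the line, and SDHA, COX4I2 and ATP5MGL lie apart from them.

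All 39 genes with a structural complex I symbol had peaks of all 3 lists in the window, and the TSS was under control Kac at 38, under SB Kac at 38 and under Kbz at 37. The median percentile was 92.1 in control Kac (range 61 to 99.7), 94.0 in SB Kac (63.6 to 99.9) and 82.0 in Kbz (29.9 to 97.2). The percentile was higher in SB Kac than in control Kac at 30 of the 39, read against 62.2% of all coding genes. NDUFA4 and NDUFA4L2 are counted here by symbol, although NDUFA4 is now known as a complex IV subunit. Without them 37 genes remained, with the TSS under Kac at 37 in each condition and under Kbz at 36, medians of 92.4, 94.3 and 82.5, and a lowest SB Kac percentile of 73.0. The 8 NDUFAF genes, which help to put complex I together and are not part of the finished enzyme, also had all 3 lists, with the TSS covered in each. Their medians were 86.9, 91.4 and 72.9.

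The strongest acetylation among the members was found here and in ATP synthase. NDUFA9, an accessory subunit encoded at chr12:4649114 on the plus strand, had a control Kac peak from 4647781 to 4649997 at percentile 99.7. Its SB Kac peak ran from 4647813 to 4650920 (percentile 99.5) and its Kbz peak from 4648070 to 4649843 (95.5), each touching exon 1 of 11. AKAP3 starts 63 bp away on the other strand, under the same peaks. NDUFA11, a membrane-arm subunit, was at 99.4 in control Kac and 99.7 in SB Kac, with 95 in Kbz, over 1435, 2528 and 1678 bases. NDUFB1, another membrane-arm subunit, was at percentile 97.4 in control Kac over 1832 bases and at 99.9 in SB Kac, the highest of all members, over 3547 bases, and its Kbz peak was at 94.0. CPSF2 starts 263 bp from NDUFB1 in the other direction.

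NDUFS5, a subunit of the intermembrane space side, had one of the strongest Kbz peaks at percentile 97.2, and its Kac percentiles were 95.7 in control and 98.3 in SB cells. The NDUFS5 peaks spanned 2340, 2529 and 2179 bases around the TSS and exon 1 of 3, in control Kac, SB Kac and Kbz. NDUFV2, a core subunit of the NADH-oxidising module, stood at the other end with the lowest Kbz percentile of the members, 29.9, over 1036 bases. Its Kac percentile was 61 in control cells over 3517 bases and 88.3 in SB-treated cells over 1984 bases, so the SB Kac peak was stronger in rank and shorter. No other coding gene starts within 3 kb of NDUFV2.

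NDUFA8, an accessory subunit, showed the fewest bases under Kbz, 557, from 39 to 595 bp downstream of the TSS, while its Kbz percentile was 83.0. Its control Kac peak was short and strong (751 bases, percentile 94.8), and its SB Kac peak long and weaker in rank (3307 bases in the window, percentile 79.9). MORN5 starts 129 bp upstream on the other strand. The TSS of NDUFA8 was under Kac in both conditions and not under Kbz, a state found at 3 of the 88 members with Kac over the TSS in both conditions (3.41%), against 19.7% of all coding genes. ATP5F1C and COX6B1 were the other two.

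The complex II genes differed among themselves. SDHA and SDHB form the catalytic head that oxidises succinate, with SDHA carrying the flavin, and SDHC and SDHD anchor it in the membrane. SDHC had the strongest acetylation, at percentile 90.9 in control Kac and 99.2 in SB Kac, with 86.8 in Kbz, and SDHD followed with 89.7, 97.1 and 82.7. SDHB was at 86.0, 89.7 and 78.6, with 772 bases under Kbz, from 37 bp upstream to 734 bp downstream, against 1364 in SDHC and 1678 in SDHD. Peaks of these 3 genes covered the TSS in every list.

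SDHA had weak Kac and no Kbz. Its control Kac peak, chr5:217944-219834, crossed the TSS at 218320 and exon 1 of 15, at percentile 33.6 and a −log10 q of 2.1, the lowest among the members' strongest control Kac peaks. In SB-treated cells there were instead 2 short peaks that left the TSS bare, chr5:217847-218126 at percentile 61.8 and chr5:219504-219869 at percentile 65.1. SB Kac minus control Kac was 31.5 percentile points at SDHA, the highest difference of all members, but the SB value is of a peak 1184 bp downstream of the start, and 646 bases were covered in all where control cells had 1891. CCDC127 starts 167 bp from SDHA on the other strand and shares the control peak. The SDHA promoter printed above is rich in CpG, with 110 in the 1 kb around the TSS and an observed over expected ratio of 0.887, more than SDHB (56), SDHC (58) or SDHD (53).

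Reads had to map uniquely to be used in the peak calls, and SDHA has near copies elsewhere in the genome. Of the 50-base words within 3 kb of its TSS, 69.7% occurred once in hg38, the lowest share of the members, and 92.8% within 500 bp. The part of repeated sequence in the missing Kbz peak was not tested. Over all members the median share within 500 bp was 100%, the lowest was 79.3% (COX7B2), and 78 members were at 99% or more. With 261 alternate sequences of the assembly counted as well, no word at NDUFA6 or COX8C was unique, and NDUFA6 still had peaks of all 3 lists.

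Complex III genes had peaks of all 3 lists at 8 of 9 members, with median percentiles of 92.4 in control Kac and 95.9 in SB Kac, with 75.8 in Kbz. UQCRH, the hinge subunit, had the most bases under Kbz of all members, 4529, with a peak from 46300609 to 46305226. Its window was filled by Kac in both conditions (6001 bases in each), in single peaks of 46300559 to 46308929 in control and 46300496 to 46309910 in SB cells on chromosome 1. LRRC41 starts 82 bp away on the other strand, inside all 3 peaks. UQCRH was at percentile 96.5 in control Kac and 94.9 in SB Kac, and its Kbz value of 73.2 is below the members' Kbz median of 77.9.

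UQCR10, a small subunit next to cytochrome c1, was at percentile 81.5 in control Kac over 2433 bases, at 97.7 in SB Kac over 3701 bases and at 81.7 in Kbz over 2139 bases. Its difference between the Kac lists, 16.2 percentile points, was exceeded at SDHA and NDUFV2 (27.3). ZMAT5 starts 362 bp from it on the other strand. UQCRHL, a copy of UQCRH with 1 exon on the minus strand of chromosome 1 (TSS 15807649), had no peak in any list around its canonical TSS. The 50-base words within 500 bp of its TSS were unique in 88.7% of cases, and 23 CpG were counted there.

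In complex IV, which reduces oxygen, 13 of 17 members had Kac in each condition and 11 had Kbz. The members with peaks had median percentiles of 83.5 in control Kac and 87.3 in SB Kac, with 64.0 in Kbz, the lowest of the complexes in each list. With NDUFA4 and NDUFA4L2 added, Kac was found at 15 of 19 genes and Kbz at 13, and the medians were the same. COX7C, a small subunit, had the second highest Kbz percentile of all members, and COX5B, a subunit with a zinc site, was at 88.0. The control Kac peak of COX7C, chr5:86616863-86618934, was at 90.7. The SB Kac peak of COX7C, 86617140 to 86619361, was at 97 and its Kbz peak, 86617111 to 86618767, at 98.0. All of these COX7C peaks crossed the TSS and exon 1 of 3.

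Members with a paralog were compared as pairs. For 7 subunits a widely used form was set beside a form known for narrow or induced expression, namely COX4I1 beside COX4I2 (lung and low oxygen), COX6A1 beside COX6A2 (heart and muscle), COX6B1 beside COX6B2 (testis), COX7A2 beside COX7A1 (heart and muscle), COX7B beside COX7B2, COX8A beside COX8C (testis) and NDUFA4 beside NDUFA4L2 (low oxygen). All 7 widely used forms had all 3 lists, and the TSS was covered in every list except at COX6B1 in Kbz.

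Among the restricted forms COX6A2, COX7A1, COX7B2 and COX8C had no peak within 3 kb in any list. COX4I2 had Kac at the edge of the window, ending 2946 bp upstream in control and 2913 bp upstream in SB cells, with 55 and 88 bases inside it. At NDUFA4L2, peaks lay on both sides and never over the TSS. The upstream control Kac peak (percentile 83.1) ended 1454 bp before the start and the SB Kac peak (63.6) 1386 bp before it, while the upstream Kbz peak (47.9) ended 2425 bp before it. SB Kac minus control Kac was −19.4 percentile points at NDUFA4L2, the lowest difference of all members, with −15.4 at COX4I2 and −14.9 at NDUFA8 next to it.

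COX6B2 was the restricted form with a peak over its start. An SB Kac peak, chr19:55353667-55355576, crossed the TSS at percentile 68.7 and a −log10 q of 4.00. In control cells the nearest Kac peak began 586 bp downstream (percentile 39.5), and a stronger one ended 2624 bp upstream (77.1). No Kbz peak was called there. Counted by the start site, COX6B2 was therefore covered by Kac in SB-treated cells and not in control cells, in 1 library each.

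Kbz at the widely used partners covered a wide range of ranks. Its percentiles were 77.9 in NDUFA4, 76.9 in COX7A2, 71.0 in COX4I1, 62.7 in COX7B, 53.5 in COX8A, 44.7 in COX6B1 and 43.8 in COX6A1. At COX6B1 that value is of a distal peak ending 2501 bp upstream, and the Kbz peak near the start ran from 58 to 656 bp downstream at percentile 19.5. The strongest control Kac peak was likewise distal in COX6A1, COX6B1 and COX7B, while a weaker one covered the TSS at percentiles of 62.6, 71.0 and 57.8.

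CpG content did not sort the pairs in one direction only. In the 1 kb around the TSS there were 117 CpG in COX4I1 and 41 in COX4I2, 67 in NDUFA4 and 23 in NDUFA4L2, and 70 in COX8A and 57 in COX8C. In COX6B2, however, 80 were found against 44 in COX6B1, in COX7A1 55 against 44 in COX7A2, and in COX7B2 33 against 31 in COX7B. COX6A1 had 69 and COX6A2 had 62. Over all members the median was 66 with Kbz (n = 89) and 55 without (n = 9), and over all coding genes 77 with Kbz and 26 without.

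**Figure D5:**
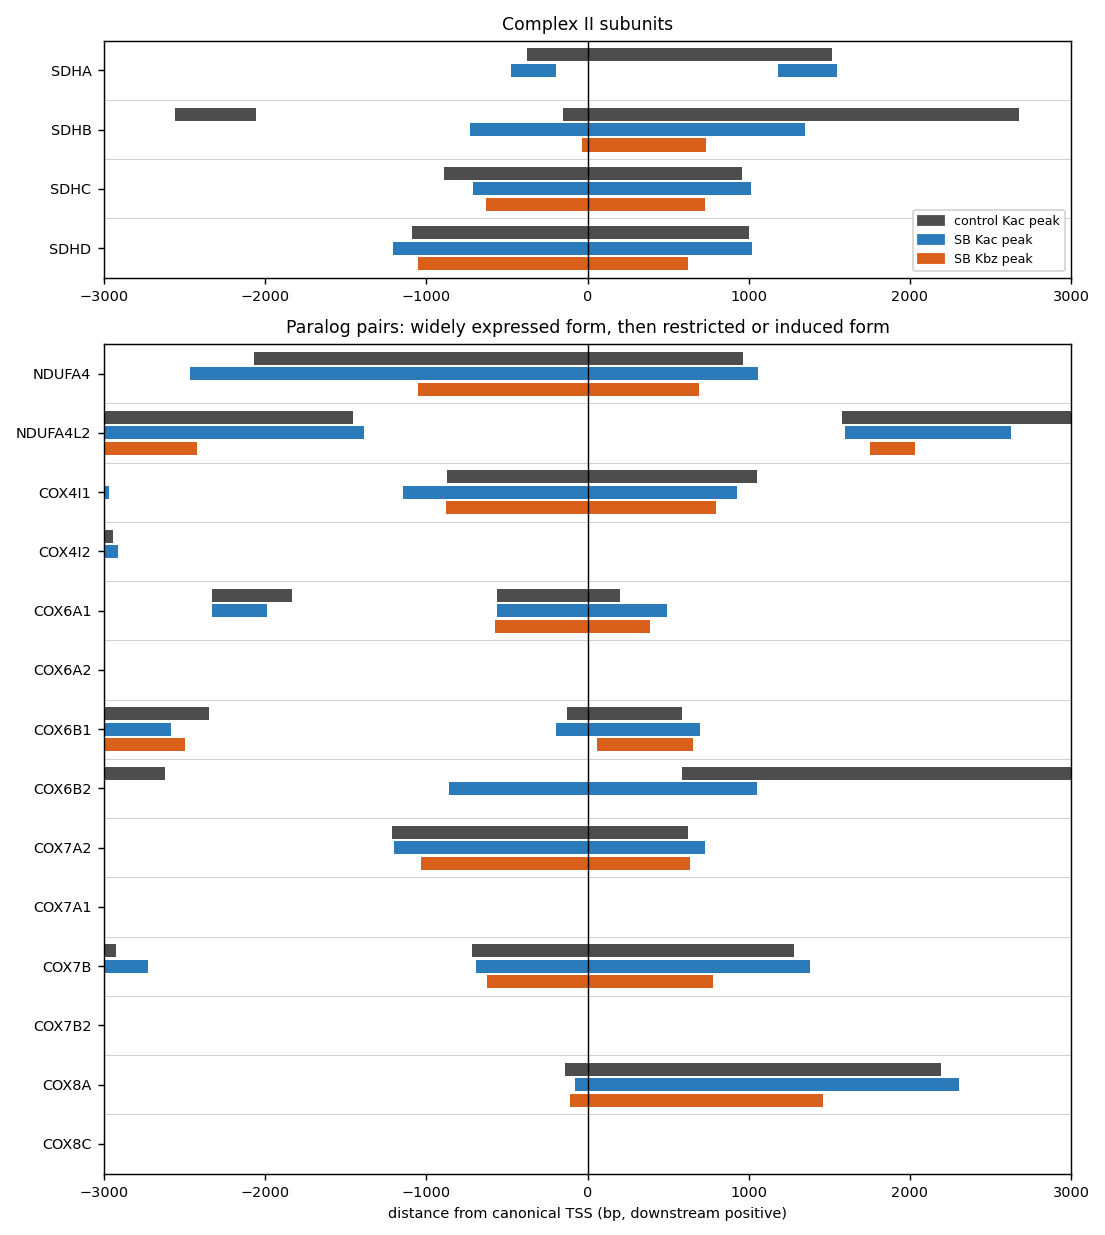
Peaks within 3 kb of the TSS of the complex II genes (upper panel) and of 7 pairs of paralogs (lower panel), by distance from the TSS in bp, with control Kac in grey, SB Kac in blue and SB Kbz in orange. Bars cross the TSS line at SDHB, SDHC and SDHD in each list and at the widely used forms, Kbz of COX6B1 starting 58 bp downstream, while rows of COX6A2, COX7A1, COX7B2 and COX8C are empty.

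ATP synthase genes had Kac at all 19 members in both conditions and Kbz at 18, with median percentiles of 90.9, 94.7 and 79.5. ATP5MC2 and ATP5MC3 each encode the same c subunit of the membrane ring. ATP5MC2 had the highest control Kac percentile of all members, 99.7, with 99.6 in SB Kac and 95.9 in Kbz. Its peaks were long and one-sided, with 4121, 4131 and 4078 bases in the window and reaching over 3 kb upstream in each list, although no other coding gene starts within 3 kb. ATP5MC3 had the highest Kbz percentile of all members, 98.1, beside 90.9 in control Kac and 98.2 in SB Kac, over 1961, 2000 and 1618 bases around the TSS and exons 1 and 2 of 5.

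ATP5F1C, the gamma subunit of the central stalk, had Kbz from 61 to 710 bp downstream, 650 bases at percentile 62.7, and Kac across the start at 75.9 in control and 83.3 in SB cells. KIN starts 184 bp from it on the other strand. ATP5PF, a stalk subunit, shares its promoter with GABPA, the DNA-binding part of GABP, whose TSS is 68 bp away. The pair lay under 5377 bases of control Kac, 6001 of SB Kac and 3649 of Kbz, at percentiles of 91.8, 96.1 and 89.3. ATP5MGL, a gene with 1 exon on chromosome 22, had Kac peaks ending 2144 bp upstream in control and 2475 bp upstream in SB cells (percentiles 35.3 and 40.9) and no Kbz.

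Other genes of the pathway had peaks at least as often as the members. A list of 60 genes, with the cytochromes of the chain, assembly factors of each complex and regulators of mitochondrial biogenesis, had a control Kac peak at 59, an SB Kac peak at 59 and a Kbz peak at 59. In the same order, the shares were 94.9%, 94.9% and 90.8% over the members, and 73.1%, 72.1% and 60.5% over all coding genes. The median percentiles of the 60 genes were 91.8, 93.9 and 80.5, beside the members' 89.9, 93.9 and 77.9. All 22 complex IV assembly genes had each list over the TSS. Of the 17 complex IV members 10 had Kbz over the TSS, against 45.9% of all coding genes. PPARGC1A, a coactivator of mitochondrial genes, had a Kbz peak of low rank (percentile 15.1) and no Kac peak, and YY1 had Kac without Kbz.

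Promoter letters were searched in the 300 bases from 250 before to 50 after the start, for the 78 members and 14661 coding genes with a RefSeq promoter entry. The NRF1 core GCGCATGC was found on either strand in 15 members (19.2%), against 4.48% of all promoters and 6.01% of those with Kbz. The YY1 core AAGATGGCG was found in 10 members (12.8%), against 3.10% and 4.73%, and the ETS core CCGGAAG in 23 (29.5%), against 15% and 21%. The SP1 box GGGCGG was found in 49 members (62.8%), against 62.6% and 74.8%. The NRF1 core reads almost the same on both strands, so 1 site can match more than once. A match describes the sequence and does not show that a factor was bound.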

How the data were processed

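ChIP-seq of HepG2 cells was used, with 1 library per group. Per the study's methods and the labels, chromatin was digested with micrococcal nuclease, single reads of 50 bp were aligned with Bowtie2 2.2.6 to hg38, uniquely mapped reads were kept, duplicates were removed with SAMtools 0.1.19, and broad peaks were called per library with MACS2 2.1.1. The stated FDR was 0.01, while the deposited −log10 q went down to 1.31 in all lists, which puts the highest q-value at 0.0487 (control Kac), 0.0494 (Kac after SB) and 0.0485 (Kbz). The broad setting and background track are not given in the sources used here.

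The fold deposited by the authors, a linear ratio of signal over background averaged across a peak, was only ranked among the peaks of one library. The −log10 p and q-values, deposited as well, served as thresholds or descriptions, and the deposited display score was not used for any result. The input libraries were not analysed here, and 3 control Kac peaks on unplaced sequences were left out.

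From these lists a peak counted where at least 1 base lay within 3 kb of the canonical TSS in GENCODE 44. Shares carry Wilson 95% intervals. The 294 windows of members were compared with bedtools 2.31.1 with 0 differences, and on simulated data 0 of 1000 planted peaks were missed. Calculations ran in Python 3.11.15 (scipy 1.17.1, numba 0.67.0, pandas 2.3.3, numpy 2.4.6), plots in matplotlib 3.10.9, and sequences were read with samtools 1.23.1.

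The members, the lists of related and marker genes, the motifs and the alternatives were chosen with earlier results of these data known. Genes named with values were members without a peak in some list, the 3 members highest by fold percentile in each list, the 3 with the most and the 3 with the fewest Kbz bases, the complex II genes, the 3 largest differences between the Kac percentiles in each direction, members with Kac and without Kbz over the TSS, and the restricted isoforms with their paralogs. ATP5PF, COX5B, NDUFA6, UQCRFS1, PPARGC1A and YY1 were added after their values were seen.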

Additional observations from a re-analysis of the deposited data

How the results depend on the processing

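With 1 library per group, leaving out a replicate was not possible. No paired analysis was possible because no group had a repeat library. Of 87 values under alternatives for 15 results, 66 stayed inside the interval of the reported value or within 1.5 times of a count, and 21 moved further. None of them moved with a −log10 q of at least 2, without NDUFAF and read-through genes, with members that have no other coding TSS within 3 kb, with ranks by −log10 q or with the peak over the TSS only.

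At a −log10 q threshold of 5, the share of members with a peak was 85.7% in control Kac (all coding genes 48.2%), 87.8% in SB Kac (54.6%) and 77.6% in Kbz (41.3%), and the TSS was covered at 80.6% in control Kac (42.5%) and 75.5% in Kbz (33.8%). Control Kac without SB Kac was then found at 4 members, SB Kac without control Kac at 6 and SB Kac without Kbz at 10. These counts are out of 84, 86 and 86 members with the first list named. Over all coding genes with that list the shares were 7.02%, 18.0% and 26.4%. With 15000 peaks per list, the shares were 72.4% in control Kac (39.3%) and 85.7% in SB Kac (49.1%), with the TSS covered at 71.4% in control Kac (35.1%), and the 3 counts were 1, 14 and 2. More members then lacked control Kac (27) than Kbz (12), so the order of the lists depends on how many peaks each holds.

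SB Kac without Kbz was found at 2 of 90 members with a 1 kb window, against 16.3% of all coding genes with SB Kac. With the peak's midpoint in the window the 3 counts were 1, 1 and 2, against 5.86%, 4.78% and 16.7% of all coding genes. With the TSS of any transcript 1 of 94 members, UQCRHL, had SB Kac without control Kac, against 2.81%. Ranked by length, the median percentile was 75.5 in control Kac (all coding genes 79.0) and 78.3 in SB Kac (80.7). The cause of these shifts was not tested. A peak list holds no depth, so a weak stretch and an uncalled one cannot be told apart.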
